A study of Mus musculus with 4 samples.

Results

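The 36 genes described here belong to the unfolded protein response (UPR), the signalling system of the endoplasmic reticulum (ER), or encode chaperones of the ER lumen. They were chosen by gene symbol, from a list that names sensors, transcription factors, chaperones and degradation factors. Earlier results of these data were known when the list was made. Every probe set annotated to one of the genes alone was taken. All 36 were on the array, with 82 probe sets of 45037, and they make up 36 of the 18193 genes measured. They were divided into 3 branches by the sensor they are usually assigned to: ATF6 and chaperones with 14 genes, IRE1-XBP1 and ER-associated degradation (ERAD) with 12, and PERK-ATF4 with 10. The samples were cells that the titles name as endothelial cells derived from murine induced pluripotent stem cells (miPSC-EC), from 2 mice with diet-induced obesity (DIO) and 2 healthy control mice, with 1 Affymetrix array for each mouse. Age was given as 24 weeks for all 4, and both groups were grown in endothelial medium, with RNA taken after trypsinization. The cell type entry reads iPSC for every sample, no sort for endothelial cells is named, and genotype, strain and diet composition are not given in the labels used here. Levels are log2 expression values per probe set, so a difference of 1 is a factor of 2, and every difference is the DIO mean minus the control mean.

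The UPR adjusts the folding capacity of the ER to its load of new secretory and membrane proteins. Its sensors sit in the ER membrane and are held in check by the chaperone BiP (Hspa5): ATF6 is cut to release a transcription factor that drives chaperone genes, IRE1 (Ern1) is an RNase that splices Xbp1 RNA, and PERK (Eif2ak3) is a kinase that slows translation through eIF2alpha while ATF4 protein is made. In endothelial cells the system is studied because they secrete large glycoproteins and because it is engaged by lipid and glucose overload.

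Promoter sequence was examined because these genes are textbook targets of motif-binding UPR factors, and the sequences below are those of genes whose values recur in the results. Of the 36 genes, 32 had a promoter in the RefSeq table of build GRCm38.p6, with 33 promoters in all, and the 250 bases before each start were searched on both strands. The ER stress response element (ERSE, CCAAT and CCACG with any 9 bases between them) lay in 9 of the 33 promoters, or 27.3%, against 0.113% of all 32851 promoters in the table. Base composition was not matched in this comparison, and the promoters of the table include the 33. Because the genes were listed as known UPR genes, an excess over all promoters is no independent finding. The 9 genes were Calr, Canx, Creld2, Hsp90b1, Hspa5 and Pdia6 of the chaperone branch and Derl3, Dnajc3 and Syvn1 of the ERAD branch. No PERK-ATF4 gene had it in this window. In the following 5 sequences, written in the direction of the gene, the capitals mark the ERSE on either strand with up to 25 bases on each side; Hsp90b1 had a further ERSE that is not printed.
Hspa5, chr2:34772000-34772068, + strand: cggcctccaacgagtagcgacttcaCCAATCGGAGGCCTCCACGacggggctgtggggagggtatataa
Creld2, chr15:88819495-88819563, + strand: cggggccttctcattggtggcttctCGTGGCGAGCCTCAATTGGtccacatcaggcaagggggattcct
Calr, chr8:84847050-84847118, - strand: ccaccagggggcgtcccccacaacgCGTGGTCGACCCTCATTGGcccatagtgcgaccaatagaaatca
Hsp90b1, chr10:86705508-86705576, - strand: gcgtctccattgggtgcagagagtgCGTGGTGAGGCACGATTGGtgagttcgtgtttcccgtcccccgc
Derl3, chr10:75893217-75893285, + strand: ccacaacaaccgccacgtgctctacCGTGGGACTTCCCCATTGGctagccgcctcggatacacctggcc
Herpud1 had the related ERSE-II element (ATTGG and CCACG with any 1 base between them), which was in 0.0304% of all promoters, and the capitals mark it.
Herpud1, chr8:94386352-94386412, + strand: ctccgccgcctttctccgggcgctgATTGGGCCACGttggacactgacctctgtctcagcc
The composite site of C/EBP and ATF factors (TGATG, any 1 base, AA) lay in the promoters of Asns, Atf3, Chac1 and Nupr1 of the PERK-ATF4 branch and of Herpud1, which is 15.2% of the 33 promoters against 3.45% of all. The capitals mark it in 4 of them.
Atf3, chr1:191183411-191183468, - strand: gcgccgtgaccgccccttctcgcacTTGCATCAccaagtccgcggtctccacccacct
Chac1, chr2:119351024-119351081, + strand: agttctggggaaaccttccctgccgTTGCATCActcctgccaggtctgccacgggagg
Nupr1, chr7:126625548-126625605, - strand: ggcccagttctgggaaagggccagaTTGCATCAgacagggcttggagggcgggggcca
Asns, chr6:7693210-7693257, - strand: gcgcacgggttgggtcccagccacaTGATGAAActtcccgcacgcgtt
Of the other motifs searched, the CCACG end alone, which every ERSE and ERSE-II contains, was in 66.7% of the 33 promoters and in 28.3% of all, the cAMP response element TGACGTCA was in that of Ppp1r15a (1.55% of all), and the XBP1-type element TGACGTGG was in 0 of 33 (0.563% of all). A match describes the sequence and does not show that a factor binds there.

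The arrays were alike in scale but not in cell markers. Medians over all probe sets were 5.61 and 5.61 on DIO 1 and DIO 2, against 5.63 and 5.65 on control 1 and control 2. Control 2 stood apart: 11 epidermal markers averaged 8.05 and 9.13 on the DIO arrays, against 6.57 and 12.05 on the controls, and all 11 were higher on control 2 than on control 1. The 18S ribosomal RNA probe sets averaged 12.30 and 11.96 in DIO, against 12.60 and 12.65 in control, and this separation of the groups accompanies every gene comparison below. The 3′ minus 5′ signal of the actin and Gapdh control probe sets was 0.16 and 0.26 in DIO, against 0.16 and 0.24 in control, and did not separate them. Of 14 endothelial markers, 8 were among the dimmest 40% of genes, while the 10 pluripotency markers averaged 10.70 and 9.55 in DIO, against 10.13 and 9.21 in control. Trophoblast markers separated the groups: they averaged 9.09 and 9.35 in DIO, against 8.82 and 8.48 in control. The DIO mean was higher for 7 of 7, the median difference was 0.64, and 5 of the 7, or 71.4%, had both DIO arrays above the controls, against 21.4% of all genes. Fibroblast markers averaged 6.31 and 6.65 in DIO, against 6.05 and 7.40 in control, and markers of endoderm and liver 6.18 and 6.21 in DIO, against 5.55 and 7.71 in control. Simple epithelial markers averaged 12.44 and 12.45 in DIO, against 12.34 and 12.42 in control, the highest of these marker lists on every array. The endothelial label is thus only weakly borne out by its markers, and the cells are called by their titles. The part that these measures play in the UPR results was not tested. In whole-culture RNA, fewer cells of a type and less RNA per cell cannot be told apart.

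UPR and chaperone genes were mostly lower in DIO cells than in control cells, by modest amounts. The DIO mean was lower for 30 of the 36 and higher for 6, against 46.7% and 53.3% of all genes, and the median difference was −0.22, against 0.02 over all genes. With averaged probe sets, 24 were lower and 12 higher, and after quantile normalization or centring 28 were lower and 8 higher. The groups were separated downward, with the DIO arrays below the 2 controls, for 21 of the 36, or 58.3%, against 17.0% of all 18193 genes. They were separated upward for 1 of the 36, Derl3, against 21.4% of all genes. The dimmest 40% of genes hold 0 of the 36, and among the other 10916 genes the DIO mean was lower for 53.3% and the groups were separated downward for 21.5%. No gene passed in limma with Benjamini-Hochberg adjustment (0 of 36, and 0% of all genes), with adjusted p = 0.728 for the lowest of the 36. At an unadjusted p below 0.05, 6 of the 36 were lower in DIO (Ern1, Ddit3, Eif2ak3, P4hb, Xbp1 and Creld2), which is 16.7% against 3.32% of all genes, and 0 were higher, against 3.26% (6.58% in either direction). The 36 genes are not replicates of one another, and these counts describe 4 arrays. The genes were also chosen with earlier results of these data known, so the shares beside all genes are descriptions only.

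The lower values were present against each control array alone. Both DIO arrays lay below control 1 for 25 of the 36 genes, or 69.4%, against 42.3% of all genes, and below control 2 for 26, or 72.2%, against 29.6%. The median over the 36 was −0.27 without control 2 and −0.21 without control 1. The count at an unadjusted p below 0.05 was less steady, with 12 lower and 1 higher without control 2, 6 lower without control 1, 3 lower without DIO 1 and 1 lower without DIO 2, where 12.4%, 20.3%, 1.62% and 0.94% of all genes were at that level in either direction. Without control 1, 483 genes of the whole array passed the adjusted threshold (2.65%), and 0 of the 36 were among them. With 2 arrays a group, an exact 2-sided permutation test of a single gene cannot give a p under 0.333.

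**Figure D1:**
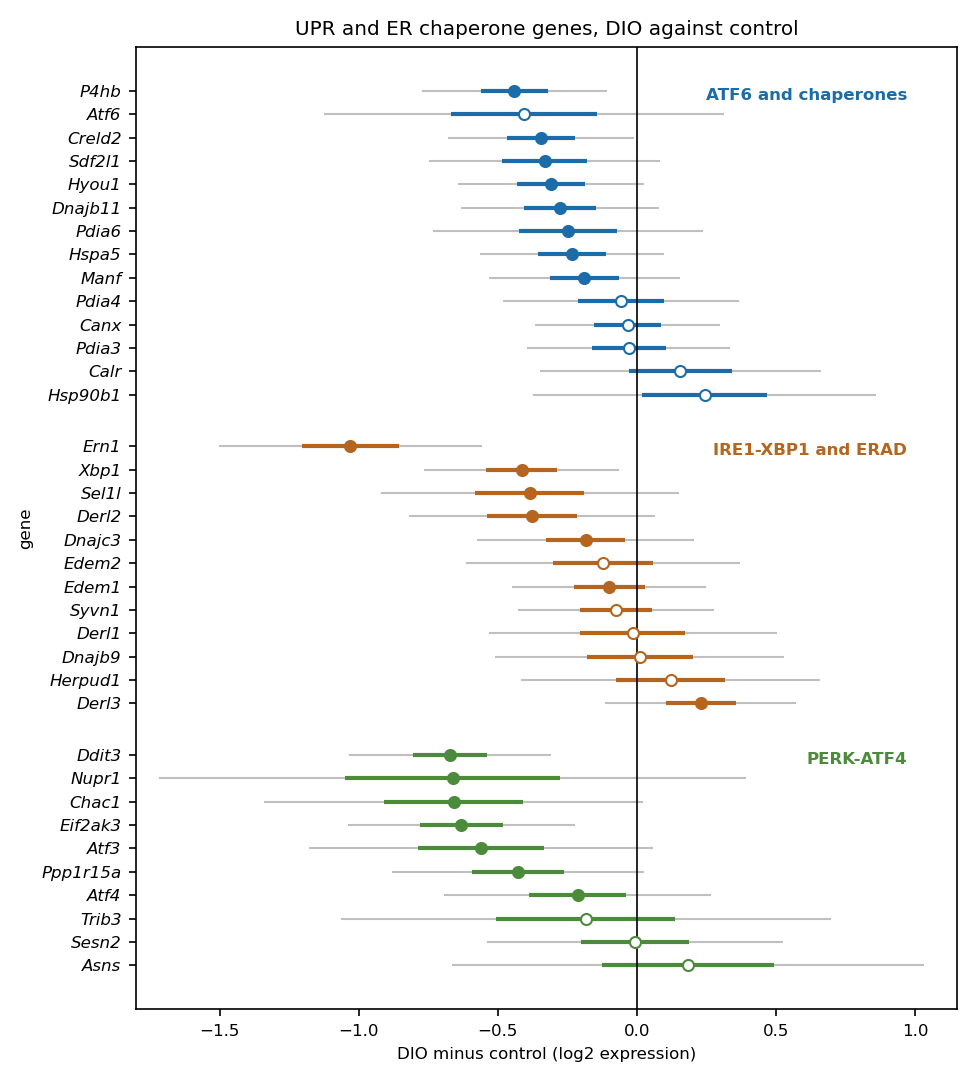
DIO minus control on the log2 scale for each of the 36 genes, by branch, with the standard error as a thick bar and the 95% confidence interval as a thin line. Filled points are genes whose DIO and control arrays do not overlap. Most points lie left of 0, from −1.03 for Ern1 to 0.24 for Hsp90b1.

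In the branch of ATF6 and the chaperones, 12 of 14 genes had a lower DIO mean, and the median difference was −0.24. The groups were separated downward for 8 (57.1%), against 17.0% of all genes and 21.5% of those outside the dimmest 40%. The sensor gene Atf6 was at 8.59 and 8.32 in DIO, against 9.17 and 8.55 in control. Its DIO 1 and control 2 values overlapped, and the difference of −0.41 ± 0.26 (SE) became −0.71 without control 2 and −0.10 without control 1. Hspa5, which encodes BiP, the main Hsp70 chaperone of the ER, was at 13.15 and 13.13 in DIO, against 13.34 and 13.40 in control. Its groups were separated by 0.19, more than the arrays of either group differed from each other, and the difference was −0.23 ± 0.12, or a DIO level 0.851 times that of control. A second of its 3 probe sets differed by −0.001, and the third, at 9.14 and 9.23 in DIO and 8.13 and 8.73 in control, by 0.76 ± 0.23 in the opposite direction. Averaged over its probe sets, Hspa5 was at 0.17.

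The genes of this branch with the smallest p encode folding enzymes and helpers of BiP. P4hb, the protein disulfide isomerase PDI that is also a subunit of collagen prolyl 4-hydroxylase, was at 12.37 and 12.39 in DIO, against 12.79 and 12.85 in control. Creld2, an ER stress-inducible protein with disulfide isomerase activity, was at 9.36 and 9.35 in DIO, against 9.74 and 9.66 in control. Arrays of the same group lay within 0.08 of each other for both genes, with the groups 0.40 and 0.30 apart, and the differences were −0.44 ± 0.12 and −0.35 ± 0.12 (limma, adjusted p = 0.728 for each). Hyou1, the nucleotide exchange factor that resets BiP, was at 9.18 and 9.20 in DIO, against 9.53 and 9.46 in control, a difference of −0.31 ± 0.12. Sdf2l1, a partner of the BiP cochaperone ERdj3, was at 9.27 and 9.01 in DIO, against 9.45 and 9.50 in control, a difference of −0.33 ± 0.15. Dnajb11, which encodes ERdj3 itself, differed by −0.28 ± 0.13 and the BiP-binding secreted factor Manf by −0.19 ± 0.13, and both groups of both genes were also separated. Sdf2l1 was at −0.20 without DIO 2. In this branch Hyou1, Dnajb11, Sdf2l1 and Manf thus stood on the same side, each by less than 0.5. The probe sets of BiP itself gave no single direction. The cochaperones Dnajb9 and Dnajc3, counted in the ERAD branch, were at 0.01 with overlapping groups and at −0.18.

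The lectin chaperones and most other oxidoreductases showed smaller differences. Canx, the membrane-bound lectin chaperone, differed by −0.03 ± 0.12, and Pdia3, the disulfide isomerase that works with the lectin chaperones, by −0.03 ± 0.13. Pdia4 differed by −0.06 ± 0.15 and Pdia6 by −0.25 ± 0.18, and the groups of Pdia6 were 0.03 apart. The other 2 probe sets of Canx differed by −0.14 and −0.19, with the groups separated downward. Without DIO 2, Pdia6 was at −0.06, and without DIO 1 at −0.43. For the brightest probe set of Canx the 95% interval was −0.37 to 0.30, so a difference of that size in either direction is not excluded by these arrays. Without control 2, Pdia3 was at 0.05 and Pdia4 at 0.08. Only Hsp90b1 and Calr had a higher DIO mean in this branch. Hsp90b1, which encodes the Hsp90 of the ER, GRP94, was at 12.44 and 12.62 in DIO, against 12.03 and 12.55 in control, a difference of 0.24 ± 0.23 that was −0.02 without control 1, 0.50 without control 2 and 0.04 with averaged probe sets. Control 1 was the low array, and the other 3 lay within 0.18 of each other. Calr, the soluble partner of Canx, differed by 0.16 ± 0.18, which was −0.05 without DIO 2 and 0.36 without DIO 1.

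**Figure D2:**
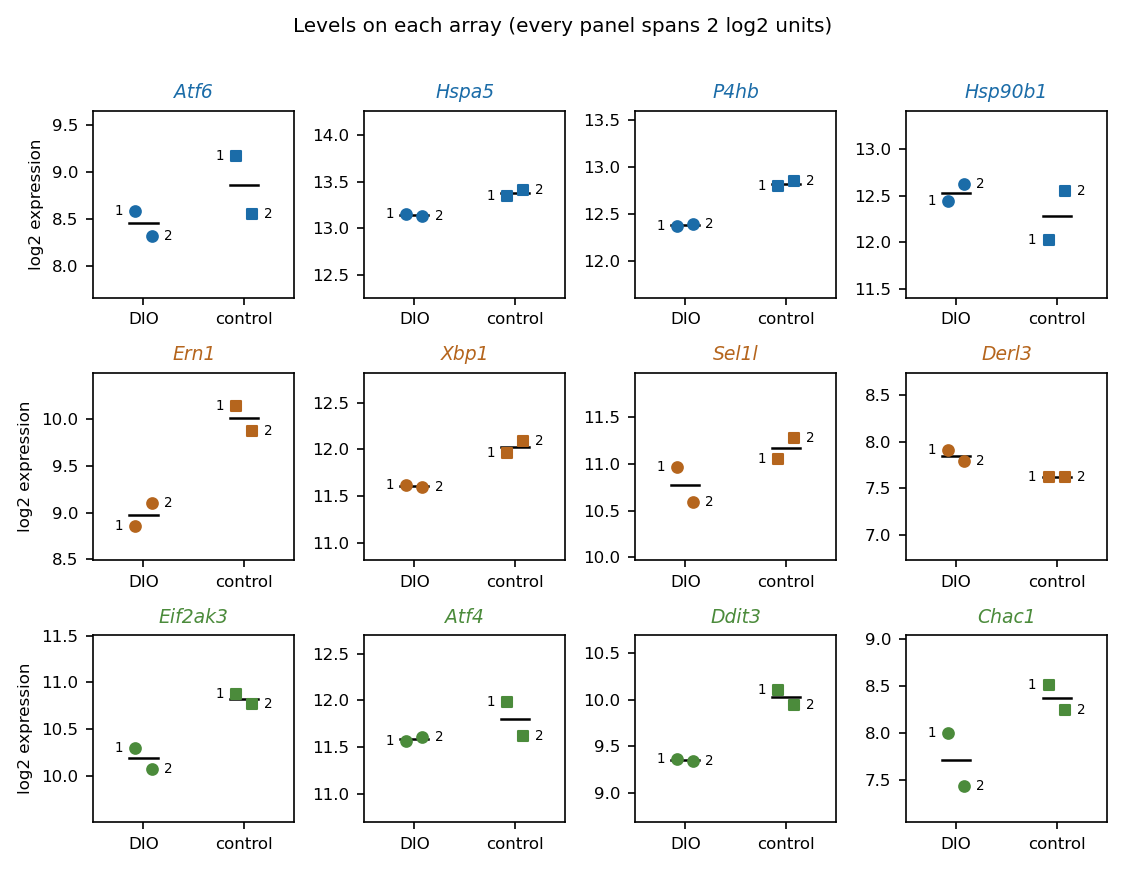
Log2 expression of 12 genes on each array, with DIO to the left of control, the mouse number beside each point and a line at each group mean (n = 2 each). Every panel spans the same range of 2 log2 units, and the panels of Ern1, Ddit3, Eif2ak3 and P4hb show the DIO pair apart from the control pair while those of Atf6 and Hsp90b1 overlap.

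In the IRE1-XBP1 and ERAD branch the sensor Ern1 and the factor Xbp1 had the smallest p. Of 12 genes, 9 had a lower DIO mean, and the median was −0.11. The groups were separated downward for 6 (50%) and upward for 1 (8.33%), against 17.0% and 21.4% of all genes. Outside the dimmest 40% of genes, 21.5% were separated downward. Ern1, which encodes the sensor IRE1, was at 8.86 and 9.10 in DIO, against 10.14 and 9.87 in control. By brightest probe sets this was the largest difference among the 36 genes, −1.03 ± 0.17, or 0.490 times the control level, with 0.78 between the nearest DIO and control arrays (limma, adjusted p = 0.728). It ranged from −1.16 to −0.90 when 1 array was left out, but with its 5 probe sets averaged it was −0.40, less than those of Nupr1, Chac1, Ddit3, Atf3, Derl2, P4hb and Ppp1r15a. Xbp1, the transcription factor activated when IRE1 splices its RNA, was at 11.62 and 11.60 in DIO, against 11.96 and 12.09 in control. Its difference was −0.41 ± 0.13, and the groups were 0.34 apart, while its average over probe sets was −0.23. The values are of Xbp1 as a whole and were not used to tell its spliced from its unspliced form.

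The genes that IRE1 and XBP1 are known to induce, and the ERAD machinery, differed among themselves in direction. Sel1l, the adaptor of the HRD1 ubiquitin ligase, was at 10.97 and 10.59 in DIO, against 11.05 and 11.28 in control, a difference of −0.39 ± 0.20 with a gap of 0.08, which was −0.19 without DIO 2 and −0.58 without DIO 1. Its catalytic partner Syvn1, which encodes HRD1, differed by −0.07 ± 0.13. Derl2, a derlin of the channel through which misfolded proteins leave the ER, was at 10.27 and 10.22 in DIO, against 10.78 and 10.47 in control, a difference of −0.38 ± 0.16 that was −0.22 without control 1. Its relative Derl3 ran the other way, at 7.90 and 7.79 in DIO, against 7.62 and 7.62 in control, a difference of 0.23 ± 0.13, and Derl1 differed by −0.02 ± 0.19. The groups of Derl1 overlapped in that probe set, but its other 3 were all separated downward, from −0.28 to −0.25. Dnajc3, the cochaperone p58IPK, was at 11.07 and 10.94 in DIO, against 11.10 and 11.28 in control, a difference of −0.18 ± 0.14 with a gap of 0.03, which was −0.09 without control 2 and −0.28 without control 1.

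The remaining genes of this branch differed by less in their brightest probe sets. The mannosidase-like proteins Edem1 and Edem2, which mark glycoproteins for disposal, differed by −0.10 ± 0.13 and −0.12 ± 0.18. The other probe set of Edem1 was at −0.33 ± 0.12 with the groups separated downward. That of Edem2 was at 0.23, on dim levels of 4.24 and 4.51 in DIO and 4.08 and 4.21 in control. Herpud1, a scaffold of the HRD1 complex, differed by 0.12 ± 0.20 and Dnajb9, the cochaperone ERdj4 and a standard XBP1 target, by 0.01 ± 0.19. Dnajb9 and the brightest probe set of Derl1 had the same pattern within the groups, with the second mouse higher by 0.31 and 0.29 in DIO and by 0.30 and 0.31 in control. The other probe sets of Derl1 did not share it, with steps of −0.03, −0.10 and −0.02 in DIO and 0.01, −0.15 and −0.06 in control. Without 1 array the small group differences of these genes changed sign. Edem2 was at 0.06 without control 1, Herpud1 at −0.10 and Dnajb9 at −0.14 without DIO 2, and Dnajb9 at −0.14 without control 1. Derl1 was at 0.13 without DIO 1 and 0.14 without control 2. The branch median was −0.17 without DIO 1 and −0.05 after quantile normalization.

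The PERK-ATF4 branch had the lowest median difference of the 3, although the branches were not tested against each other. Of its 10 genes, 9 had a lower DIO mean, and the median was −0.49. The groups were separated downward for 7 (70%), against 17.0% of all genes and 21.5% of those outside the dimmest 40%. Differences below −0.5 were found for 5 of the 10, against 1 of the 12 in the IRE1 branch, 0 of the 14 in the chaperone branch and 1158 of all 18193 genes. The sensor gene Eif2ak3 was at 10.30 and 10.07 in DIO, against 10.87 and 10.76 in control. The difference of −0.63 ± 0.15, or 0.645 times the control level, ranged from −0.75 to −0.52 when 1 array was left out and was −0.40 with averaged probe sets (limma, adjusted p = 0.728). Atf4, the transcription factor whose protein output rises when eIF2alpha is phosphorylated, was at 11.57 and 11.61 in DIO, against 11.99 and 11.62 in control. Control 2 lay only 0.01 above the nearer DIO array, and the difference of −0.21 ± 0.18 was −0.03 without control 1 and −0.40 without control 2.

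Several genes downstream of PERK and ATF4 were also lower. Ddit3, which encodes the pro-apoptotic factor CHOP, was at 9.36 and 9.34 in DIO, against 10.11 and 9.94 in control. The groups were 0.58 apart while the DIO arrays differed by 0.02, and the difference was −0.67 ± 0.13, or 0.627 times the control level (limma, adjusted p = 0.728). Ppp1r15a, which encodes GADD34, the phosphatase subunit that restores translation, was at 9.58 and 9.54 in DIO, against 10.15 and 9.83 in control, a difference of −0.43 ± 0.17 that was −0.26 without control 1. Atf3, a factor induced by ATF4, was at 9.68 and 9.77 in DIO, against 10.56 and 10.01 in control, a difference of −0.56 ± 0.23 that was −0.29 without control 1 and −0.83 without control 2. Chac1, which degrades glutathione, was at 8.0 and 7.43 in DIO, against 8.51 and 8.24 in control, a difference of −0.66 ± 0.25 that was −0.37 without DIO 2 and −0.95 without DIO 1. For Atf3 the control arrays lay 0.55 apart and for Chac1 the DIO arrays 0.57 apart, both more than the 0.24 that separated the groups of either gene. Nupr1, a stress-induced chromatin protein, was at 9.97 and 9.70 in DIO, against 9.99 and 11.01 in control. Its difference of −0.66 ± 0.39 was −0.15 without control 2 and −1.17 without control 1.

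The groups of the other 3 genes in this branch overlapped. Asns, which makes asparagine, differed by 0.18 ± 0.31, the ATF4-induced pseudokinase Trib3 by −0.18 ± 0.32, and Sesn2, a leucine sensor that restrains mTORC1, by −0.01 ± 0.20. All 3 were lower on control 2 than on control 1, by 0.69, 0.86 and 0.43 on the log2 scale, and this within-group step was larger than any of their group differences. Without control 2, Asns was at −0.16, Trib3 at −0.61 and Sesn2 at −0.22. Without control 1, Trib3 was at 0.25 and Sesn2 at 0.21. Asns was also at −0.04 without DIO 1 and Sesn2 at 0.05 without DIO 2.

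**Figure D3:**
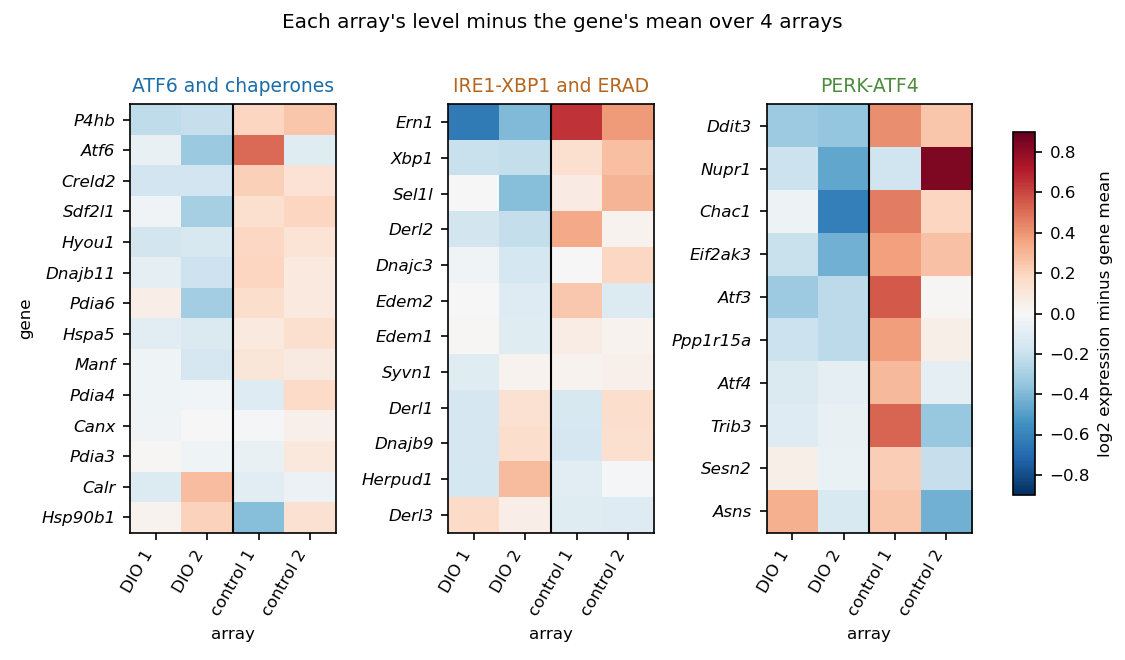
Each array's log2 level minus the gene's mean over the 4 arrays, in a panel for each branch, with DIO arrays left of the vertical line and control arrays right of it. Red is above and blue below the gene's mean. In the PERK-ATF4 panel control 1 is the highest array for 8 of 10 genes.

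The branches differed in how the 2 control arrays compared. Control 2 was below control 1 for 9 of the 10 PERK-ATF4 genes, with a median step of −0.35, while it was above for 8 of the 14 genes of the chaperone branch and 7 of the 12 of the ERAD branch, with median steps of 0.05 and 0.05. Over all genes the median step was −0.09, and 6843 of 18193 were above. The PERK-ATF4 median was −0.60 without control 2 and −0.28 without control 1. Between DIO 2 and DIO 1 the median step of the PERK-ATF4 genes was −0.08, with 3 of 10 above. Of the pluripotency markers, 10 of 10 were lower on DIO 2 than on DIO 1, by a median of −1.24, and 10 of 10 lower on control 2 than on control 1, by a median of −0.92. The median step of the PERK-ATF4 genes was downward in both groups, and larger between the controls than between the DIO arrays. The part of the markers in the PERK-ATF4 values was not tested. Over all 36 genes, control 1 was the highest array for 18 and control 2 for 12, against 34.0% and 20.9% of all genes, and DIO 1 for 2 and DIO 2 for 4, against 20.8% and 24.3%.

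Genes whose promoters held an ERSE lay on either side of 0. Of the 9, 6 had a lower DIO mean and 4 were separated downward, with a median of −0.07 and a range of −0.35 for Creld2 to 0.24 for Hsp90b1. The other 23 genes with a promoter had a lower DIO mean in 20 and groups separated downward in 15, with a median of −0.33. These 23 include all 10 genes of the PERK-ATF4 branch, whose median was −0.49 and of which 0 had an ERSE. The part of the branch in this contrast was not tested. Of all genes, 17.0% were separated downward, and 21.5% of those outside the dimmest 40%. Among the sequences printed above, by brightest probe sets those of Hspa5 and Creld2 belong to genes with a lower DIO mean and those of Calr, Hsp90b1 and Derl3 to genes with a higher DIO mean. Of the 5 genes with the C/EBP-ATF composite site, Atf3, Chac1 and Nupr1 were at −0.56, −0.66 and −0.66, and Asns and Herpud1 at 0.18 and 0.12. These are descriptions of few genes, and no test was made of them.

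Where a gene had several probe sets, they often but not always gave the same direction. Of the 26 such genes, 13 had every probe set lower in DIO, 3 had every one higher and 10 were mixed. Of all 82 probe sets, 61 were lower and 43 were separated downward, against 47.6% and 19.0% of all 45037 probe sets, and 10 were separated upward, against 22.3%. An unadjusted p below 0.05 was reached in either direction by 16 of the 82, against 9.29% of all. Among the 16, a probe set of Hspa5 at 0.76 and another of Atf4 at 0.40 were higher in DIO, and the rest were lower. After adjustment 0 passed (limma, adjusted p = 0.531 for the lowest, and 0% of all). Eif2ak3 was lower in all 3 of its probe sets, Nupr1 in both, and Sel1l in all 5, from −0.47 to −0.18. Derl2 was lower in both, with −0.74 ± 0.17 for its dimmer one, and Ddit3 in both, with −0.47 ± 0.15 for the second. Ern1 was lower in 4 of 5, and Xbp1 in 3 of 4. Derl1 is a case where the brightest probe set stood alone, since the other 3 differed by −0.28, −0.27 and −0.25 with separated groups. Atf4 was the least settled: its brightest probe set was at −0.21, and the other 2 were at 0.53 ± 0.21 and 0.40 ± 0.11 with the groups separated upward. The first of these was at 9.01 and 9.54 in DIO, against 8.79 and 8.69 in control. The second was dim, at 4.41 and 4.45 in DIO, against 4.05 and 4.01 in control, also below 5.98. No direction is therefore given for Atf4, which is counted above by its brightest probe set.

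**Figure D4:**
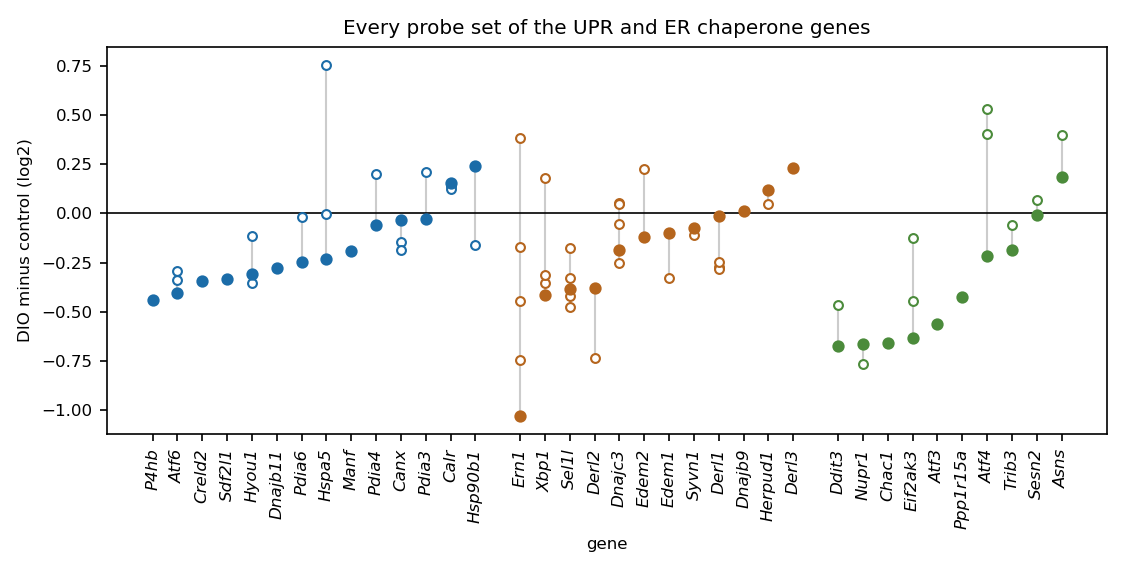
DIO minus control for all 82 probe sets, in a column for each gene, with the probe set of the highest mean filled and the others open. Blue marks ATF6 and chaperones, brown IRE1-XBP1 and ERAD, and green PERK-ATF4. Sel1l and Ddit3 lie wholly below 0, and Hspa5, Ern1 and Atf4 cross it.

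Other genes of the same pathways were set beside the 36, to be read against the 17.0% of all genes separated downward (21.5% outside the dimmest 40%) and the 21.4% separated upward. Of 23 further folding genes measured, 18 had a lower DIO mean, 8 (34.8%) were separated downward and 1 (4.35%) upward, with a median of −0.15. Ero1a, the oxidase that recharges PDI, was at 10.19 and 10.15 in DIO, against 10.60 and 10.61 in control, a difference of −0.43 ± 0.12, and Erp44, which retains Ero1a in the early secretory pathway, differed by −0.44 ± 0.13. P4hb and its oxidase Ero1a thus had nearly the same difference. Mbtps1, the protease that makes the first cut in ATF6, differed by 0.27 ± 0.16 and the prolyl isomerase Fkbp2 by 0.03 ± 0.12. Of 22 further ERAD and translocon genes, 17 had a lower DIO mean, 10 (45.5%) were separated downward and 2 (9.09%) upward, with a median of −0.11. Wfs1, an ER membrane protein that restrains ATF6, was at 8.88 and 9.06 in DIO, against 9.80 and 9.58 in control, a difference of −0.72 ± 0.15, and Erlec1, a lectin of the HRD1 complex, differed by −0.55 ± 0.14. Ssr1 of the translocon differed by 0.20 ± 0.13 and the ubiquitin ligase Rnf5 by 0.18 ± 0.13.

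The wider set of ATF4 and eIF2alpha genes was spread on both sides of 0. Of 26 measured, 15 had a lower and 11 a higher DIO mean, 6 (23.1%) were separated downward and 4 (15.4%) upward, near the 17.0% and 21.4% of all genes, and the median was −0.04. Phgdh, the first enzyme of serine synthesis, was at 11.25 and 11.21 in DIO, against 10.73 and 10.62 in control, a difference of 0.55 ± 0.13, and Bbc3, which encodes the pro-apoptotic PUMA, differed by 0.54 ± 0.28. The eIF2alpha kinase of heme deficiency, Eif2ak1, differed by −0.33 ± 0.16 and Vldlr, a lipoprotein receptor induced by ATF4, by −0.31 ± 0.17. None of the genes in these 3 further lists passed (limma, adjusted p = 0.728 for the lowest of each list). At an unadjusted p below 0.05 there were 2, 2 and 0 lower and 0, 0 and 1 higher, against 3.32% and 3.26% of all genes.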

How the data were processed

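Gene expression was measured on 4 Affymetrix mouse arrays of miPSC-EC, 2 from DIO and 2 from control mice. The authors deposited log2 expression values per probe set. The scale was read from the values, which ran from 2.59 to 14.56, and the background correction, normalization and summary method were not given in the sources used here. No detection calls were used. Groups and mouse numbers came from the titles. The labels speak of biological duplicates, but nothing says how many iPSC lines each mouse gave, so p-values measure the spread between these samples.

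From 45101 probe sets, 64 manufacturer controls were left out. Names came from the platform annotation (34945 probe sets with 1 symbol, 932 with several, 9160 not listed), and 34741 matched RefSeq by gene number. The brightest probe set by mean level stood for each gene, and all probe sets were also tested singly. Groups were compared over all genes with limma 3.58.1 (lmFit and eBayes, 2-sided) in R 4.3.3, with Benjamini-Hochberg adjustment and a threshold of 0.05. The number of arrays limits the precision: for the 36 genes the 95% interval extended by a median of 0.45 on each side of a difference. The fit was tested on simulated data, where it recovered 0% of true changes of 1, 51.3% of changes of 2 and 77.7% of changes of 3. Array values are given in full for the sensors Atf6, Ern1 and Eif2ak3, for Xbp1, Atf4, Ddit3, Hspa5 and Hsp90b1 and for the 4 further genes of each branch with the smallest p, and from each further list the 2 higher and 2 lower genes with the smallest p are named. The members and lists were chosen with earlier results of these data known. Promoters came from RefSeq, build GRCm38.p6, and ER retention signals in protein sequence were not analysed here. Alternatives were quantile normalization, median centring, leaving out the dimmest 40% of genes, averaged probe sets, trended and robust eBayes, a replicate block and leaving out each array.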

Additional observations from a re-analysis of the deposited data

How the results depend on the processing

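Of 36 genes, 0 passed under any of the 10 alternatives. Over the whole array 0 genes passed under each except without control 1, and counts ran from 0 to 483 genes and from 0 to 592 probe sets when 1 array was left out. The 1198 genes at an unadjusted p below 0.05 became 607 without the dimmest genes and 171 to 3689 with 1 array left out. With the mouse number as a replicate block there were 0 passing genes and 982 at that level. The deviations of same-numbered mice from their group means correlated at 0.33 over 18193 genes. With 2 arrays a group, the opposite pairing gives −0.33 by construction. The labels tie the mouse numbers to different animals, and there are 2 pairs. Any shared handling of same-numbered samples was not tested.

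The branch medians were lower in DIO under every alternative. For ATF6 and chaperones the median was −0.16 with averaged probe sets and −0.27 to −0.17 with 1 array left out. For IRE1-XBP1 and ERAD it was −0.053 after quantile normalization, −0.082 after centring, −0.15 with averaged probe sets and −0.17 to −0.10 with 1 array left out. For PERK-ATF4 it was −0.60 to −0.28 with 1 array left out. Genes with groups separated downward, a count whose alternatives were chosen after seeing the data, numbered 17 after centring (14.4% of all genes), 19 after quantile normalization (15.4%) and 21 with averaged probe sets (16.6%). With 1 array left out, which leaves fewer arrays to separate, they numbered 22 to 26, and 25.4% to 42.3% of all genes did so.

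Single genes turned direction as follows; the cause was not tested. With averaged probe sets Hspa5 was at 0.17, Pdia3 at 0.091, Pdia4 at 0.071, Edem2 at 0.052, Atf4 at 0.24 and Sesn2 at 0.030. After quantile normalization Pdia4 was at 0.0027 and Sesn2 at 0.059, and after centring Derl1 was at 0.014 and Sesn2 at 0.021. Other probe sets of opposite sign were at 0.76 for Hspa5, −0.16 for Hsp90b1, 0.21 for Pdia3, 0.20 for Pdia4, 0.38 for Ern1, 0.18 for Xbp1, 0.053 and 0.049 for Dnajc3, 0.23 for Edem2, 0.53 and 0.40 for Atf4 and 0.068 for Sesn2. With 1 array left out the ranges that crossed 0 were −0.018 to 0.50 for Hsp90b1, −0.046 to 0.36 for Calr, −0.11 to 0.051 for Pdia3, −0.20 to 0.085 for Pdia4, −0.14 to 0.16 for Dnajb9, −0.31 to 0.063 for Edem2, −0.10 to 0.34 for Herpud1, −0.17 to 0.14 for Derl1, −0.61 to 0.25 for Trib3, −0.16 to 0.53 for Asns and −0.22 to 0.21 for Sesn2.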
